A study of Ovis aries with 2 samples.

Results

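The KCNJ8-positive barcodes of a sheep testis library labelled ZEA, an abbreviation of the Fusarium toxin zearalenone, are described here. KCNJ8 encodes the pore subunit of an ATP-sensitive potassium channel and is a marker of pericytes. A barcode of the ZEA library belonged to the class when it held 500 or more unique molecular identifiers (UMIs), at least 1 KCNJ8 UMI, no UMI of the endothelial genes VWF and CDH5, at most 2 UMIs of the fibroblast gene DCN and no UMI of the macrophage genes C1QA, C1QB and C1QC. These criteria were met by 160 of 8809 ZEA barcodes, a share of 1.82% (exact 95% binomial interval 1.55 to 2.12%), out of 15839 barcodes in both libraries. The study has 1 droplet single-cell 3′ library of testis from the ZEA group and 1 from the control group, both from sheep aged 8 months. The labels give the ZEA group the number 0.75 with no unit and no route or length of exposure. With 1 library per group there is no replicate, so no test was run; every interval covers counting error only, and PCR and cell sampling add error that it leaves out.

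Pericytes are mural cells that sit in the basement membrane of capillaries and small venules, in direct contact with the endothelium. They take part in capillary tone and vessel stability, and they answer endothelial PDGF-B through the receptor PDGFRB. Their ATP-sensitive channel joins the KCNJ8 pore to the sulphonylurea receptor ABCC9, and its opening hyperpolarises the cell and relaxes it. Vascular smooth muscle cells and, in the testis, the peritubular myoid cells are the related contractile cells.

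The ZEA library held 22148456 UMIs in its barcodes and the control library 53044981. The KCNJ8-positive barcodes held 285135 UMIs, with a median of 1587 per barcode (range 500 to 14353), against a median of 1397 in the other 8649 ZEA barcodes. Their median mitochondrial share was 3.18% of UMIs, against 0.754% in the others, and their median share of spermatid marker UMIs was 0.388%, against 0.713%. The libraries shared 15 barcode sequences, none of them from the class. Depth was uneven across it: the class made up 0.615% of barcodes with 500 to under 1000 UMIs, 4.38% of those with 1000 to under 2000, 1.41% of those with 2000 to under 5000 and 0.264% of those with 5000 or more. Only 3 barcodes exceeded 5000 UMIs (7279, 11788 and 14353), and they carried 11.7% of the UMIs of the class.

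KCNJ8 chose the class, and its values are given as description. One KCNJ8 UMI was present in 90 of the barcodes, 2 in 43, 3 in 16 and 4 in 8, and a single barcode each held 5, 6 and 7. The class held 274 of the 411 KCNJ8 UMIs of the library (66.7%), or 961 CPM (UMIs of the gene scaled to a fixed total UMI number of the class), against 6.27 CPM in all other ZEA barcodes. A further 71 barcodes had KCNJ8 and were left out, 39 of them by DCN alone and 24 by VWF and CDH5 alone. Just outside the limits lay 18 barcodes with a DCN count of 3 and 16 with a summed VWF and CDH5 count of 1. Just inside lay 25 with a DCN count of 2 and 46 with a DCN count of 1, while 89 had none.

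Free RNA can place a UMI in a barcode whose cell does not express the gene, so the share with KCNJ8 was counted in classes defined by other genes. All but the leukocyte class were kept within the rule's limits for the genes that do not define them. A KCNJ8 UMI was present in 30 of 2706 barcodes rich in spermatid markers (1.11%, interval 0.749 to 1.58%; median 1496.5 UMIs), and thinning every barcode to 500 UMIs brought this to 0.554%. Under those limits the 30 belong to the KCNJ8-positive class by definition, as do the KCNJ8-bearing barcodes of the contractile class below. They are 18.8% of the 160; the share of barcodes with 10 or more spermatid marker UMIs was 12.6% in the contractile class defined below and 37.3% in all other ZEA barcodes. Of endothelial barcodes 0.661% had KCNJ8 (0.120% after thinning), of contractile barcodes 4.25% (2.55%) and of DCN-rich fibroblast barcodes 11.5% (5.01%). None of 48 leukocyte barcodes had it, which allows a share of up to 6.25%. The part of free RNA and of doublets in the class was not tested.

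A second perivascular marker out of ABCC9, RGS5, NOTCH3, HIGD1B, COX4I2 and NDUFA4L2 was present in 141 of the 160 barcodes. The 19 without one had a median of 1028 UMIs and a median spermatid marker share of 1.06%, against 0.362% in the 141. KCNJ8 was at 1 UMI in 18 of the 19, and 2 of the 3 deepest barcodes were among them. These 19 barcodes are kept in every value below.

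RGS5, HIGD1B, COX4I2, ABCC9, MCAM and GJC1 were far higher in the class than in the rest of the library. They were the 6 of 21 perivascular genes in the files that had at least 20 UMIs in the class, observed or expected from the other barcodes. All but RGS5 passed this filter only through the class itself, so their values are given singly and their number is no result. Over all genes that passed, the background was 9.48% at least 2-fold higher (271 of 2859) and 14.9% at least 2-fold lower (426), with a median log2 ratio of −0.32. Centring the ratios on that median turned the split into 430 higher and 183 lower. With 20 UMIs required both observed and expected, a filter added after the data were seen, 4.5% of 1912 genes were at least 2-fold higher and 8.37% lower; list counts below use this filter.

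RGS5, a regulator of G protein signalling and a mural cell marker, was present in 78.1% of the KCNJ8-positive barcodes (lowest 0, median 2, highest 13 UMIs). It stood at 1662 CPM (interval 1516 to 1819), against 78.4 CPM in all other barcodes, a log2 ratio of 4.41 (4.26 to 4.55). After thinning, 47.5% of the class retained an RGS5 UMI, against 1.81% of the spermatid-rich barcodes, which contain the 30 shared ones. HIGD1B, a mitochondrial protein of the hypoxia-inducible domain family, ranged from 0 to 11 UMIs with a median of 1.5 and reached 1259 CPM, against 26.7 CPM in the other barcodes (log2 ratio 5.56, 5.37 to 5.75). COX4I2, an alternative subunit of cytochrome c oxidase, ranged from 0 to 8 UMIs with a median of 1 and reached 901 CPM, against 22.7 CPM (log2 ratio 5.31, 5.09 to 5.53). Taking RGS5, HIGD1B and COX4I2 together, 120 barcodes (75%) held 3 or more UMIs.

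ABCC9, the regulatory partner of KCNJ8 and its neighbour in the RefSeq annotation of assembly ARS-UI_Ramb_v3.0, had 57 UMIs in 44 barcodes, at most 3 in any. Its level was 200 CPM (151 to 259), against 21.4 CPM in the other barcodes (log2 ratio 3.23, 2.80 to 3.63). ABCC8, the sulphonylurea receptor of the pancreatic channel, had no UMI in the class. The adhesion molecule MCAM stood at 551 CPM, against 63.9 CPM, and the gap junction protein GJC1 at 249 CPM, against 24.3 CPM. NDUFA4L2, a respiratory chain-associated gene of pericytes, had 6 UMIs in the whole library and 5 of them lay in the class.

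Several defining pericyte genes were close to 0 in the ZEA library as a whole. KCNJ8 chose the class, so the label rests on RGS5, HIGD1B, COX4I2, ABCC9, MCAM and GJC1. All of these but RGS5 passed the filter only through the class. RGS5 and MCAM were also present in the contractile class described below. There RGS5 was found in 75.4% of barcodes, counted with or without KCNJ8. PDGFRB had 8 UMIs in the class out of 58 in the library, the proteoglycan CSPG4 (NG2) had 2 of 13 and NOTCH3 had 3 of 65. ENPEP, EBF2, STEAP4 and VTN had none. The PDGF family contributed 9 UMIs to the class over 7 genes, with 5 of the genes at 0.

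**Figure D1:**
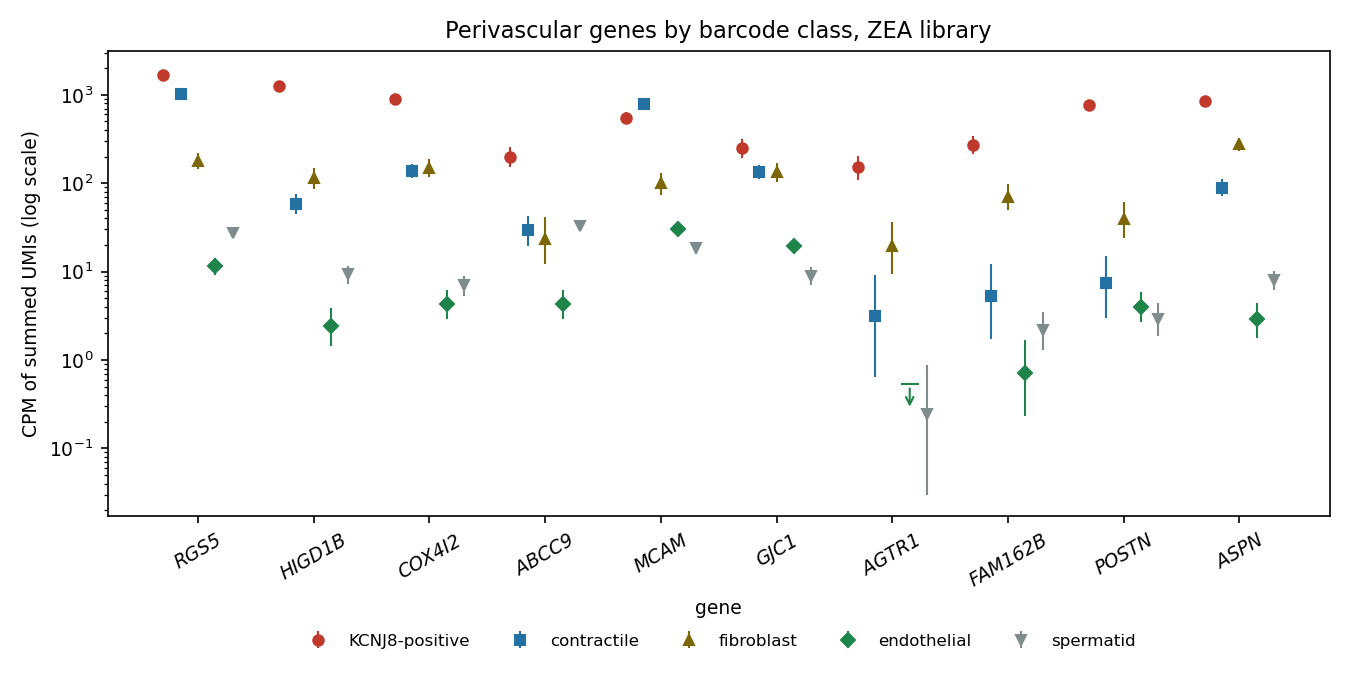
CPM of summed UMIs on a log scale for 10 genes in 5 classes of ZEA barcodes; points are class sums, bars are exact 95% Poisson intervals, and the arrow marks the upper limit of AGTR1 in endothelial barcodes, where it had no UMI. KCNJ8-positive barcodes were highest for 9 of the genes, RGS5 at 1662 CPM among them, while MCAM was higher in the contractile class (551 against 789 CPM).

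The vasoactive receptor most concentrated in the class was AGTR1, through which angiotensin II constricts vessels. It had 43 UMIs in 36 of the 160 barcodes, at most 3 in any, out of 91 in the library. Its level was 151 CPM (109 to 203), against 2.20 CPM in all other barcodes (log2 ratio 6.10, 5.47 to 6.73). Endothelial barcodes held no AGTR1 UMI among 6964546. After thinning, AGTR1 remained in 7.5% of the class.

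The thrombin receptor F2R was at 284 CPM against 55.8 CPM (log2 ratio 2.35, 2.01 to 2.67). RAMP2, the endothelial co-receptor for adrenomedullin, was at 45.6 CPM against 457 CPM (log2 ratio −3.33), and its partner CALCRL had 3 UMIs. The parathyroid hormone receptor PTH1R, at 182 CPM against 131 CPM, was also present in the spermatid class at 242 CPM. The endothelin receptors EDNRA and EDNRB had 8 and 4 UMIs in the class. Of 27 vasoactive receptors in the files, 17 had no UMI there, including ADRA1A, ADRA1B, ADRA1D, OXTR and S1PR3; a count of 0 limits a level in the class to 3 UMIs.

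Genes of the nitric oxide and cyclic GMP pathway, which relaxes mural cells, had too few UMIs expected from the other barcodes for a count over the list. GUCY1A1 and GUCY1B1, the subunits of soluble guanylate cyclase, stood at 245 CPM against 44.0 CPM and at 459 CPM against 46.9 CPM. The cyclic GMP phosphodiesterase PDE5A stood at 168 CPM against 32.7 CPM, and MRVI1, a substrate of cyclic GMP-dependent kinase, at 144 CPM against 16.2 CPM. RGS16, a further regulator of G protein signalling, stood at 98.2 CPM against 4.25 CPM (log2 ratio 4.53). Of 26 calcium-handling and ion channel genes, 3 passed the filter (ITPR2, ATP2B1 and CLIC4) and none was 2-fold apart.

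Contractile genes were lower in the KCNJ8-positive barcodes than in the muscle-like barcodes of the same library, which were chosen by ACTA2 and MYH11. The contractile class comprised 451 KCNJ8-negative barcodes with 5 or more UMIs of smooth muscle actin (ACTA2) and at least 1 of smooth muscle myosin (MYH11), under the same limits for VWF, CDH5, DCN and C1Q; it may hold vascular smooth muscle and peritubular myoid cells alike. Across 2650 genes, 6% were at least 2-fold higher and 8.23% at least 2-fold lower in the KCNJ8-positive barcodes, with a median log2 ratio of 0.01; with the filter on both sides these shares were 2.16% and 3.95% of 1948 genes. Of 13 contractile genes past the filter on both sides, none was at least 2-fold higher and 11 were at least 2-fold lower, with a median log2 ratio of −1.80. ACTA2 and MYH11 are among the 11 and had chosen the comparison class. Lower values of contractile genes that vary with them follow in part from that choice and are description only.

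TPM2, a tropomyosin, ranged from 0 to 46 UMIs with a median of 2 in KCNJ8-positive barcodes and summed to 2360 CPM, against 8213 CPM in the contractile class (log2 ratio −1.80, −1.91 to −1.69). The actin-binding protein TAGLN was at 302 CPM, against 1335 CPM (log2 ratio −2.15, −2.48 to −1.83). CALD1 (caldesmon) was closer, at 4703 CPM against 6745 CPM (log2 ratio −0.52, −0.61 to −0.44). DES (desmin), often used to mark pericytes, had 8 UMIs, and CNN1 (calponin) had 2. Against all other ZEA barcodes, by contrast, TAGLN, TPM2, CALD1 and ACTA2 were at least 2-fold higher and none of 9 contractile genes was 2-fold lower. The background against all other barcodes was 4.5% higher and 8.37% lower over 1912 genes. The ACTA2 ratio in that comparison was 1.47 with summed UMIs and 0.75 after thinning.

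Among the genes highest against the contractile class were POSTN, FAM162B, OLFML3, ANO3 and FRMD3. POSTN (periostin, a secreted matrix protein) stood at 772 CPM in KCNJ8-positive barcodes, against 7.35 CPM in the contractile class (log2 ratio 6.71, 5.65 to 8.04). HIGD1B and COX4I2 were higher by log2 ratios of 4.42 and 2.71, AGTR1 by 5.58, F2R by 3.69 and ABCC9 by 2.76, whereas RGS5 was at 1662 CPM against 1020 CPM (log2 ratio 0.70, 0.54 to 0.86). The cyclic GMP genes showed no such separation: GUCY1B1 differed by a log2 ratio of 0.34 (0.04 to 0.63) and PDE5A by 0.00 (−0.49 to 0.48). Lowest were RCAN2, the metallothionein MT1X (70.1 against 1252 CPM), the claudin CLDN10, COL4A5, the small heat shock protein CRYAB and OLFML2A, with log2 ratios between −4.27 and −3.69. RGS5 and MCAM were present in both classes, and HIGD1B, COX4I2, AGTR1 and POSTN were concentrated in the KCNJ8-positive one. Spermatid markers were close between these classes: none of 10 passed 2-fold, and their summed level was 4100 CPM against 3693 CPM.

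**Figure D2:**
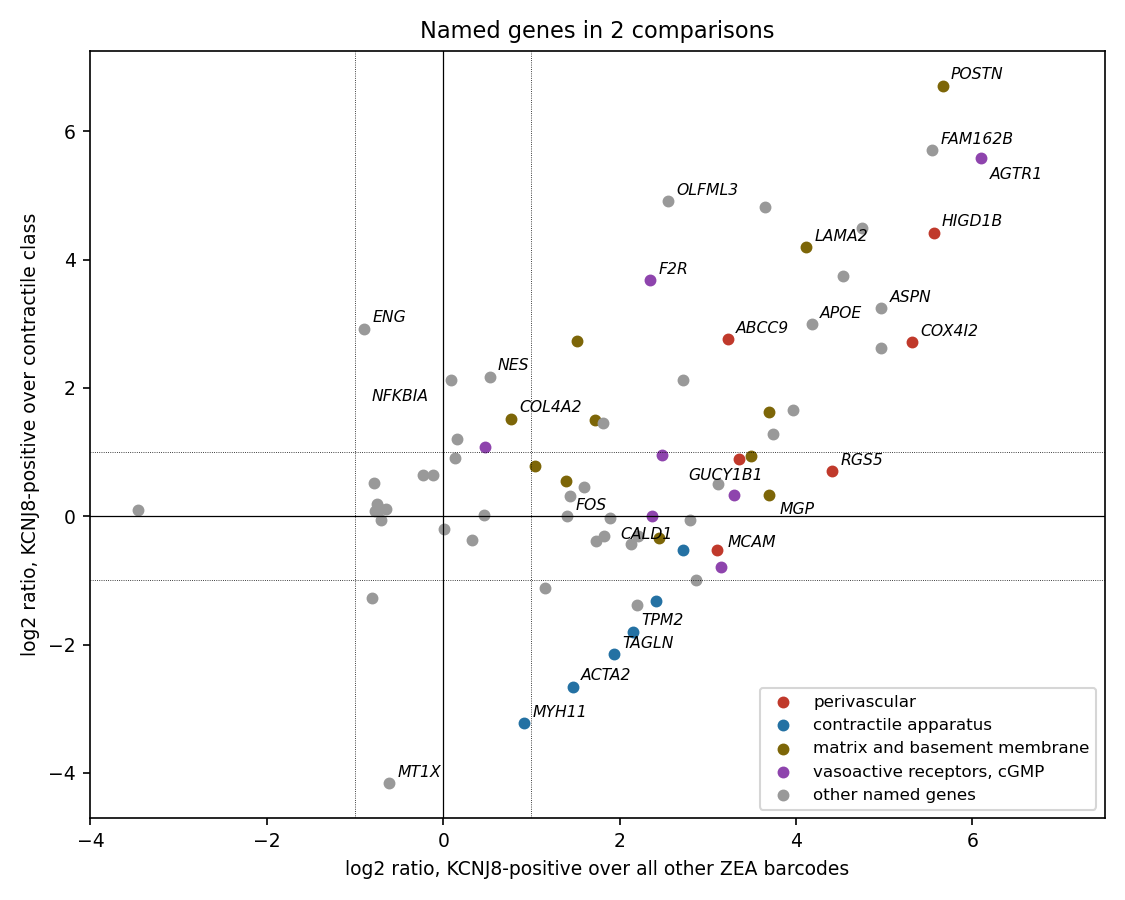
Log2 ratio of KCNJ8-positive barcodes over all other ZEA barcodes (x axis) and over the contractile class (y axis) for named genes reported here with at least 20 UMIs in the class, KCNJ8 left out; each point is 1 gene coloured by list and dotted lines mark 2-fold. POSTN and AGTR1 lie at the upper right, while ACTA2 and TPM2 are right of 0 and below −1.

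A closer comparison used 252 KCNJ8-negative barcodes that held 3 or more UMIs of RGS5, HIGD1B and COX4I2 together under the same other limits; this class was defined after earlier values had been seen, and 73.8% of it also belongs to the contractile class. Its cells may carry KCNJ8 below detection. The ACTA2 counts of the 2 classes overlapped but were placed differently. In KCNJ8-positive barcodes ACTA2 ranged from 0 to 38 UMIs with a median of 1, and 41.9% had none. In the KCNJ8-negative ones it ranged from 0 to 65 with a median of 19.5, and 8.73% had none. After thinning, ACTA2 was detected in 36.2% against 81.3% and MYH11 in 16.2% against 69.8%.

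Of 13 contractile genes, 10 were at least 2-fold lower and none at least 2-fold higher in the KCNJ8-positive barcodes. The background was 1.71% higher and 3.22% lower over 1989 genes, and 4.33% and 7.36% over 2635 genes with the wider filter. RGS5 itself, which helped to choose the comparison class, was level (log2 ratio 0.02, −0.14 to 0.18). Outside the choosing genes, POSTN was higher by a log2 ratio of 3.12 (2.67 to 3.59), AGTR1 by 2.95 (1.97 to 4.05), FAM162B by 2.27 (1.65 to 2.91) and ABCC9 by 1.64 (1.02 to 2.29).

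**Figure D3:**
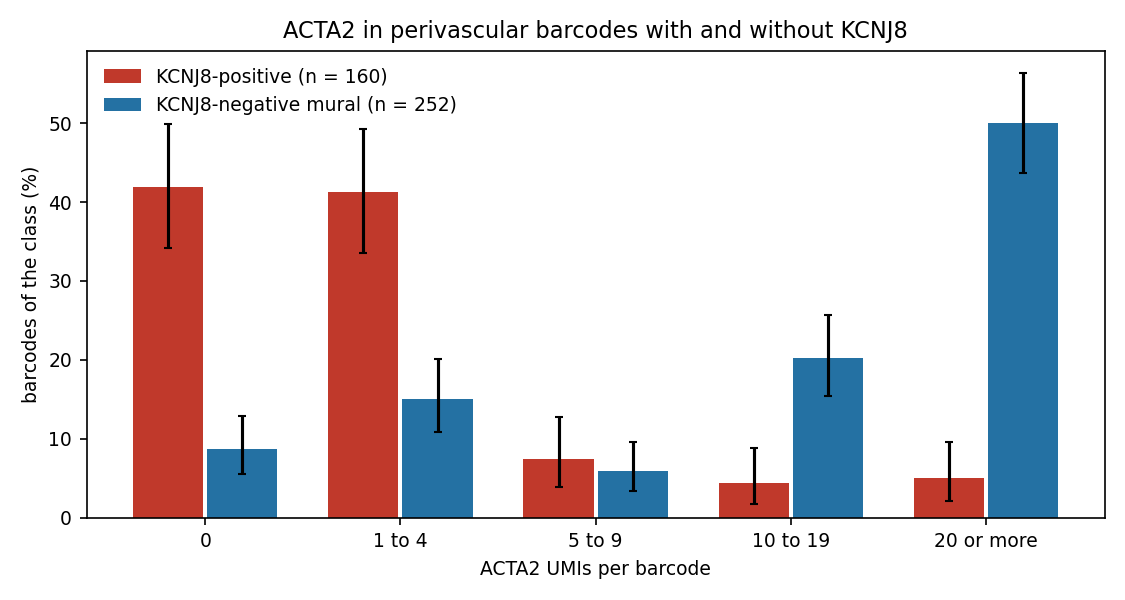
Share of barcodes (%) by number of ACTA2 UMIs in 160 KCNJ8-positive and 252 KCNJ8-negative mural barcodes of the ZEA library; bars are shares with exact 95% binomial intervals. No ACTA2 UMI was found in 41.9% of the KCNJ8-positive barcodes and 8.73% of the KCNJ8-negative ones, while 20 or more UMIs were found in 5% and 50%.

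Basement membrane genes differed by subunit. The chains COL4A1 and COL4A2, the standard type IV collagen pair of vessel walls, were at 2052 CPM and 523 CPM in KCNJ8-positive barcodes, against 601 CPM and 182 CPM in the contractile class (log2 ratios 1.77, 1.60 to 1.94, and 1.52, 1.20 to 1.85). The chains COL4A5 and COL4A6 ran the other way, with 4 and 3 UMIs in the class and log2 ratios of −3.83 (−5.72 to −2.45) and −2.98 (−5.29 to −1.38). Laminin subunits split likewise: LAMA2 was at 154 CPM (112 to 207) against 8.40 CPM and LAMB1 was higher by a log2 ratio of 2.74 (2.07 to 3.44), and LAMB2 was at 105 CPM against 460 CPM (log2 ratio −2.13, −2.71 to −1.59). Against the contractile class, 6 basement membrane genes passed the filter on both sides. COL4A1, COL4A2 and SPARC were at least 2-fold higher and LAMB2 was at least 2-fold lower. The background of that comparison was 2.16% higher and 3.95% lower over 1948 genes. Endothelial barcodes held more COL4A1 than the class, with the class at 2052 CPM against 3637 CPM. COL18A1, whose C-terminal fragment is endostatin, stood at 807 CPM, against 71.8 CPM in all other barcodes (log2 ratio 3.49, 3.28 to 3.69). Against the contractile class COL18A1 was not 2-fold apart.

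Among secreted matrix genes all 6 past the filter on both sides (MGP, TIMP1, TIMP3, COL1A1, COL1A2 and COL3A1) were at least 2-fold higher than in all other barcodes. Of all 1912 genes past it, 4.5% were. MGP, an inhibitor of calcification, ranged from 0 to 90 UMIs with a median of 21 and reached 12296 CPM, against 952 CPM in the others; the contractile class held 9794 CPM. The proteoglycan ASPN stood at 849 CPM against 27.1 CPM, and BGN at 210 CPM against 16.3 CPM. The fibrillar collagens COL1A1, COL1A2 and COL3A1 had log2 ratios of 1.39, 1.04 and 1.72 in that comparison (267 against 101 CPM, 200 against 97.4 CPM and 512 against 155 CPM), and all 3 were below 2-fold after thinning (log2 ratios 0.63, 0.16 and 0.93). Fibroblast barcodes held more of these, with the class at 267 CPM against 2990 CPM for COL1A1, 200 CPM against 2931 CPM for COL1A2 and 512 CPM against 3494 CPM for COL3A1. Against the contractile class 1 of the same 6 matrix genes was at least 2-fold higher and none lower (background 2.16% and 3.95%). Against the KCNJ8-negative mural barcodes 2 of 8 were higher and none lower (background 1.71% and 3.22%). DCN was a criterion of the rule and is not compared.

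Among adhesion genes, the laminin and collagen receptor ITGA1 was at 267 CPM against 40.4 CPM in all other barcodes and 60.9 CPM in the contractile class. The muscle integrin ITGA7 was at 165 CPM, against 22.6 CPM in all other barcodes and 329 CPM in the contractile class. ITGB1, the shared β subunit, was at 877 CPM against 324 CPM in all other barcodes and 702 CPM in the contractile class.

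APOE, the lipid carrier apolipoprotein E, ranged from 0 to 65 UMIs with a median of 15 in the class. It was present in 90.6% of KCNJ8-positive barcodes and stood at 9066 CPM (8720 to 9422), against 501 CPM in all other barcodes, 1140 CPM in the contractile class and 8679 CPM in the fibroblast class. APOE set the class apart from contractile barcodes (log2 ratio 2.99) and not from fibroblasts (log2 ratio 0.06, −0.01 to 0.13). Lipoprotein lipase (LPL) had 24 UMIs, at 84.2 CPM against 2.70 CPM, and the fatty acid-binding protein FABP5 was at 337 CPM against 48 CPM in the others. Against the contractile class FABP5 was not 2-fold apart. A further pair of features without a symbol in the files, ENSOARG00000010822 and ENSOARG00000012968, had 129 and 258 UMIs in the class, with log2 ratios of 3.51 and 2.76 over the other barcodes.

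The 9 fibroblast markers in the files beside DCN summed to 996 CPM in the class, against 405 CPM in all other barcodes and 501 CPM in the contractile class; the 3 collagens above carried the sum and 5 of the 9 were at 0. Across 2773 genes compared with the fibroblast class (300 KCNJ8-negative barcodes with 3 or more DCN UMIs and no VWF, CDH5 or C1Q UMI), 5.23% were at least 2-fold higher and 9.23% lower. PDGFRA had no UMI in KCNJ8-positive barcodes against 322 CPM in fibroblasts, the microfibril gene MFAP5 none against 1088 CPM, APOD 28.1 CPM against 1492 CPM and APOA1 130 CPM against 10253 CPM. ANO3, POSTN, GUCY1A1, HIGD1B and PGM5 were among the genes highest in the class relative to fibroblasts.

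Endothelial genes were low in the class against the rest of the library. The rule left out every barcode with a VWF or CDH5 UMI. Low values of other endothelial genes therefore follow in part from the choice of the class and are description only. Of 13 endothelial markers in the files beside VWF and CDH5, 4 had no UMI in the class. The 13 summed to 144 CPM against 619 CPM in all other barcodes. Their sum was lower in the contractile class (38.9 CPM) and in the KCNJ8-negative mural barcodes (71.1 CPM), which have the same limit on VWF and CDH5. PECAM1 had 2 UMIs (7.01 against 133 CPM). The lowest genes of the class against the rest of the library were CA4 (24.5 against 795 CPM), the efflux transporter ABCG2 (45.6 against 865 CPM), TM4SF18, CA5A and TSPAN13, and the first 4 of them were also among the 6 lowest against the endothelial class. Endoglin (ENG), a TGF-β co-receptor, was at 87.7 CPM, against 11.6 CPM in the contractile class and 412 CPM in the endothelial class. Across 2726 genes compared with the endothelial class, 23.2% were at least 2-fold higher and 13.5% lower.

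Markers of other cells gave small sums. Leukocyte markers outside the rule had 5 UMIs (6 of 8 genes at 0), Sertoli cell markers 4 UMIs (4 of 5 at 0), Schwann cell markers 1 UMI and erythroid markers none. Leydig cell markers had 12 UMIs (42.1 against 18.4 CPM in the other barcodes), of which the Leydig hormone INSL3 made up 10, in 7 barcodes. Spermatid markers summed to 4100 CPM against 6545 CPM, with none of the 12 at 0 and HMGB4 present in 90.6% of the class. The direction depends on the comparison: HMGB4 had a log2 ratio of −0.72 against all other barcodes and 0.30 without the spermatid class among them.

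Oestrogen receptors, through which an oestrogen-like mycotoxin such as zearalenone can act, were not detected in the class. ESR1 and ESR2 had no UMI among the 285135 of the class, and ESR1 had 7 in the whole ZEA library. The glucocorticoid receptor NR3C1 was at 102 CPM, against 101 CPM in the other barcodes (log2 ratio 0.00, and −0.54 without the spermatid class among them).

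Most immediate early and stress genes were within 2-fold of the contractile barcodes. FOS was at 3521 CPM, against 1330 CPM in all other barcodes and 3524 CPM in the contractile class. Of 10 such genes past the filter on both sides, FOS, ATF3 and ZFP36 were at least 2-fold higher than in all other barcodes. None was at least 2-fold lower (background 4.5% higher and 8.37% lower). Removing the spermatid class from the others took FOS to a log2 ratio of 0.80 and ATF3 to 0.58. Against the contractile class none of 11 was at least 2-fold higher, and ATF3 and HSPB1 were at least 2-fold lower. The background there was 2.16% higher and 3.95% lower. NFKBIA, the inhibitor of NF-κB, was at 561 CPM against 129 CPM in the contractile class (log2 ratio 2.12). The chemokine CXCL12 was at 21.0 CPM, against 85.8 CPM in all other barcodes and 162 CPM in the contractile class. TGFB2 and ID3, a TGF-β ligand and a target, had log2 ratios of 1.74 and 1.59 against all other barcodes, with ID3 at 0.99 once the spermatid class was removed from the others. Neither was 2-fold apart from the contractile class (median log2 ratio 0.03) or from the KCNJ8-negative mural barcodes (−0.30). Of angiogenic genes, 4 passed the wider filter against all other barcodes and none passed on both sides. THBS1 and NRP1 were at least 2-fold higher (log2 ratios 3.12 and 1.81) and 2 were at least 2-fold lower. The background with that filter was 9.48% higher and 14.9% lower. The list summed to 319 CPM in the class against 412 CPM in the others. Notch and cell cycle genes were too sparse for a count over either list.

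Barcodes were also grouped by their KCNJ8 UMIs, the gene that chose the class, and compared at the same thinned depth as a description. HIGD1B was detected in 30% of barcodes with 1 KCNJ8 UMI (interval 20.8 to 40.6%), in 58.1% of those with 2 (42.1 to 73.0%) and in 77.8% of those with 3 or more (57.7 to 91.4%). COL4A1 was detected in 41.1% (30.8 to 52.0%), 48.8% (33.3 to 64.5%) and 85.2% (66.3 to 95.8%) in the same order, and APOE in 77.8% (67.8 to 85.9%), 97.7% (87.7 to 99.9%) and 100% (87.2 to 100%). For these genes the intervals of the lowest and highest groups were apart, while those of 1 and 2 UMIs overlapped for COL4A1 and those of 2 and 3 or more overlapped for HIGD1B and APOE. All intervals overlapped for RGS5 (41.1%, 51.2% and 63.0%), COX4I2 (37.8%, 39.5% and 63.0%) and ACTA2 (35.6%, 46.5% and 22.2%). They also overlapped for MGP (82.2%, 95.3% and 100%), POSTN (24.4%, 30.2% and 40.7%) and ASPN (25.6%, 37.2% and 48.1%). The spermatid gene HMGB4 was found in 62.2%, 62.8% and 55.6%. Median depth before thinning was 1470.5, 1630 and 1595 UMIs, and 18 of the 19 barcodes without a second marker are in the first of the 3 groups.

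**Figure D4:**
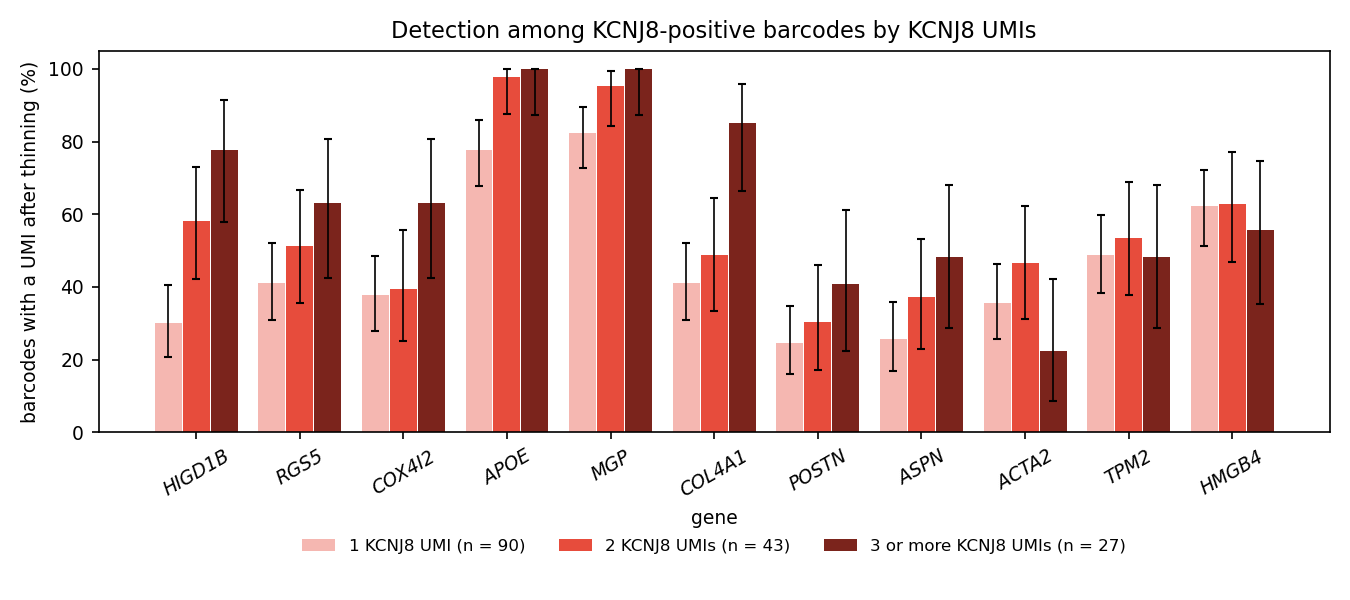
Share of KCNJ8-positive barcodes (%) with a UMI of each gene after thinning to 500 UMIs, for 90 barcodes with 1 KCNJ8 UMI, 43 with 2 and 27 with 3 or more; bars are shares with exact 95% binomial intervals. HIGD1B was detected in 30%, 58.1% and 77.8%. The intervals of RGS5, COX4I2, MGP, POSTN, ASPN, ACTA2, TPM2 and HMGB4 overlap across the 3 groups.

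Detection of ACTA2 after thinning was used to split the class, with 58 barcodes holding an ACTA2 UMI and 102 holding none. The split is not a gap in level: before thinning, 34.3% of the 102 held an ACTA2 UMI. Among barcodes of at most 5000 UMIs, a limit chosen after the data were seen that removes 3 deep barcodes with no ACTA2 UMI after thinning, MYH11 was at 1297 CPM with ACTA2 and 213 CPM without it (log2 ratio 2.60, 2.03 to 3.22). TPM2 (1.76, 1.52 to 2.01), TAGLN (1.99, 1.27 to 2.76) and MRVI1 (1.40, 0.42 to 2.44) were higher with ACTA2. So were CALD1 (0.56, 0.41 to 0.72) and the collagens COL1A1, COL1A2, COL3A1, COL4A1 and COL4A2. The collagen ratios ran from 0.52 (0.28 to 0.76) for COL4A1 to 0.96 (0.26 to 1.67) for COL1A1. HMGB4 was lower with ACTA2 (−0.33, −0.61 to −0.06). RGS5 (0.11, −0.16 to 0.38), HIGD1B (0.19, −0.12 to 0.50), MGP and APOE were close between the 2 sets, and POSTN (−0.74, −1.18 to −0.32) and COX4I2 (−0.54, −0.93 to −0.16) were lower with ACTA2. With the deep barcodes included, the ratio was 0.41 (0.14 to 0.67) for RGS5 and −0.44 (−0.88 to −0.02) for POSTN. The intervals of COX4I2 (−0.24, −0.63 to 0.14) and HMGB4 (−0.12, −0.40 to 0.15) then included 0. HIGD1B (0.47, 0.16 to 0.77), MGP (0.28, 0.19 to 0.38) and APOE (0.32, 0.20 to 0.43) were then higher with ACTA2. The differences in COX4I2 and HMGB4 thus depend on the depth limit. In 20 of the 160 barcodes both ACTA2 and MYH11 reached the limits of the contractile class.

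Rank correlation across the 160 barcodes, which share 1 library and differ in depth, is given as a description. Of 406 gene pairs, the highest Spearman rho values were 0.64 for ACTA2 and TPM2, 0.49 for ACTA2 and MYH11, 0.48 for COL4A1 and COL4A2 and 0.47 for MGP and APOE. The lowest was −0.33, for HIGD1B and HMGB4.

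The control library offered almost no matching barcodes. The ZEA library had 160 of 8809 barcodes under the rule (1.82%), against 13 of 7030 in the control library (0.185%, interval 0.0985 to 0.316%), and KCNJ8 summed to 411 UMIs against 15. The 13 control barcodes had a median of 11492 UMIs, at most 2 KCNJ8 UMIs and a median spermatid marker share of 0.969%. RGS5, HIGD1B or COX4I2 was present in 3 of them, and no gene was compared between the 2 sets. Counts over whole libraries are not scaled for depth, and the libraries held 22148456 UMIs in ZEA and 53044981 in control. Over whole libraries RGS5 had 2188 UMIs in ZEA and 14 in control, HIGD1B 942 and 25, AGTR1 91 and 0, and MGP 24325 and 143. ABCC9 had fewer UMIs in ZEA (524) than in control (1578), where the greater depth of the control library accounts for part of the gap. The spermatid class of the ZEA library held ABCC9 at 33.1 CPM. Treatment, animal, dissociation and library cannot be told apart in this design, and neither can fewer mural cells and less RNA per mural cell.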

How the data were processed

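Per the labels' protocols, testis libraries were made with a droplet single-cell 3′ gel bead kit, V3 chemistry. Per the submitters' processing notes, Cell Ranger 3.1.0 and STAR were used; the file headers give Cell Ranger 3.1.0 for the ZEA matrix and 5.0.0 for the control matrix. The sources used here do not give a genome build. The authors deposited raw UMI counts for 27054 features, 10636 of them without a gene symbol, per barcode. Cell annotations and genome sequence were not used here.

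Barcodes under 500 UMIs were left out; the other criteria for the class are in the results. No doublet caller was run and doublets were not removed. UMIs were summed over a class and given as CPM with exact 95% Poisson intervals. Log2 ratios of summed counts have exact conditional binomial (Clopper-Pearson) intervals, and a count of 0 was set to 3 counts. A gene entered a comparison with 20 or more UMIs in the class, observed or expected from the comparison class, and counted as higher or lower at 2-fold. A gene that enters through 1 side alone tends to pass 2-fold by the filter itself, so list counts require 20 UMIs on both sides, a choice made after the data were seen. Shares were also computed after thinning each barcode to 500 UMIs. The endothelial class had 2 or more VWF and CDH5 UMIs (1653 barcodes), the spermatid class 10 or more spermatid marker UMIs (2676) and the leukocyte class 2 or more C1Q UMIs (48), all without KCNJ8 unless stated. The endothelial, spermatid, fibroblast and contractile classes also kept the rule's limits on the VWF and CDH5, DCN and C1Q genes that do not define them; the leukocyte class did not.

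The class, the gene lists and the comparisons were chosen with earlier results of these data known. Genes were named by rule: the 15 highest against all other ZEA barcodes with 50 or more UMIs in 10% or more of the class, the 5 lowest, the 6 highest and 6 lowest against each similar class, and up to 4 per gene list. FABP5, CNN1, SPARC, ZFP36, COL4A6, LAMB2 and the features without a symbol were named outside this rule, after their values were seen. A few genes that the rule names are not reported here. The ratio and interval code was tested on simulated counts. Python 3.11.15, numpy 2.4.6, scipy 1.17.1, pandas 2.3.3 and matplotlib 3.10.9 were used.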

Additional observations from a re-analysis of the deposited data

How the results depend on the processing

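Of up to 69 named genes at least 2-fold apart from all other ZEA barcodes, none changed sign in 11 alternative settings. Of the 27 under 2-fold, 0 to 12 changed sign in a setting, most without the spermatid class among the others. Named genes were picked partly for large ratios in these data, and most settings kept most of the same barcodes. A gene with a count of 0 on either side was left out of that setting. A change of sign among the 69 was therefore unlikely from the start, and its absence is description only. The class shrank from 160 to 70 barcodes with 2 or more KCNJ8 UMIs required and to 89 with no DCN allowed. The number of genes at least 2-fold higher, 271 as reported, was 130 with no DCN, 112 after thinning, 430 after centring on the median, 125 with 50 UMIs per gene required and 86 with 20 UMIs on both sides. The number at least 2-fold lower, 426 as reported, was 135 with no DCN, 658 with a second marker required, 166 after thinning, 183 after centring, 158 with 50 UMIs per gene, 160 with 20 UMIs on both sides and 199 without the spermatid class among the others. Against the contractile class, thinning gave 72 higher and 87 lower and 20 UMIs on both sides gave 42 and 77, against 159 and 218 as reported. Thinning took the KCNJ8 share of spermatid-rich barcodes to 0.554%. Fewer genes enter when fewer UMIs are kept; the cause of the other shifts was not tested. Dropping the 3 barcodes over 5000 UMIs gave 315 higher and 462 lower. Of named genes past 2-fold, at most 6 of 69 dropped under it in any setting. No paired analysis was possible because each group has 1 library, and no replicate could be left out. Levels under about 20 UMIs in the class are not resolved beyond their counting intervals.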
